A study of Mus musculus with 2 samples.

Results

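The serpins, a family of protease inhibitors, were compared between epidermal keratinocytes of mice labelled as vitamin D receptor (VDR) knockout and keratinocytes of littermate controls. Members were all probes of an Illumina bead array whose file symbol starts with Serpin. This gave 66 of 25697 probes and 53 of 17871 genes, with 24 genes in clade b, 19 in clade a and 10 in clades c to i. Where a gene had several probes, the probe with the highest mean normalised intensity stood for it.

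The knockout group (KO) carried the genotype VDR fl/fl with a Cre recombinase driven by the K14 promoter, and the control group (CON) carried VDR fl/fl without Cre. All mice were 3 months old and received a low calcium diet, which the submitters used against compensation for the loss of VDR. The K14 promoter drives Cre in basal keratinocytes of the epidermis and follicle and not in pigment, immune or stromal cells. Keratinocytes were released from trypsin-treated epidermis, and the design text gives 3 samples a group and 3 mice behind a sample. Whether the RNA of 3 mice was pooled on an array is not settled by it. For each group 1 array was analysed here, so there was no spread between replicates, and no test was made for any difference.

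Serpins share a fold with an exposed reactive loop that acts as bait for a protease. When the protease cuts the loop, the serpin changes shape and traps the enzyme in an inactive complex. Clade b serpins lack a classical secretion signal and act largely inside cells, and several of them are made in stratified epithelia, where they restrain cathepsins, plasminogen activators and other proteases of shedding or inflamed skin. Clade a holds secreted serpins related to alpha-1-antitrypsin, many of them liver products. A few serpins, such as the collagen chaperone of clade h, inhibit no protease.

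Intensities below are the authors' normalised values on a linear scale, which still contain the background of the array. A probe counted as detected from an intensity of 176.6 on the KO array and of 178.5 on the CON array upward, and 47.3% and 46.7% of probes passed. Folds after removal of the background are given beside the plain ratio of intensities, because background shrinks the ratio of dim probes and its removal widens it. For a gene that passed on 1 array and not on the other, the fold is a bound, written "at least". Vdr itself, the target of the deletion, showed no lower signal in KO: its probes gave 2928, 1872 and 382.3 there, against 2626, 1624 and 286.2 on the CON array. Which part of the gene the Cre removes is not given, so these probes do not check the genotype, and "the array labelled KO" is meant throughout where KO is written. Sex-linked transcripts also differed, with 1943 and 917.3 for the probes of Xist on the KO array against 994.1 and 553.8 on the CON array, and 258.1 against 924.8 for the brightest probe of Ddx3y. Both transcripts were detected on both arrays, so each array held RNA of both sexes and thus of more than 1 mouse. The number of mice on an array is still not given. The part of the sex-linked difference in the results below was not tested.

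Several serpins of the chromosome 1 cluster of clade b were higher on the KO array, led by Serpinb12 and the copies of Serpinb3. Serpinb2 and Serpinb6a, the brightest of clade b, differed little. Serpina3h, the brightest of clade a, was 1.28-fold higher in normalised intensity. Serpinb12 was 2.50-fold higher in normalised intensity (3966 on the KO array against 1588 on the CON array), Serpinb3a was detected on the KO array alone (610.7 against 167.6, the CON value being under the detection limit) and Serpinb3b was 1.73-fold higher (1831 against 1060). Serpinb11, in the same cluster, was lower (480.1 against 763.1). Of the 53 genes, 18 were detected on at least 1 array: 14 on both, 3 on the KO array alone and 1 on the CON array alone. After background correction, 4 of the 18 were at least 2-fold higher on the KO array and 1 was at least 2-fold lower. Over all 9547 detected genes, 2.39% were at least 2-fold apart, with 1.28% higher and 1.11% lower. Among the 14 serpins detected on both arrays 2 were at least 2-fold higher and 0 lower, where 1.22% and 0.858% of 8393 genes were (2.07% in either direction). In the normalised intensities themselves 2 serpins, Serpinb12 and Serpinb3a, were at least 2-fold higher and 0 were lower, beside 0.304% and 0.199% of genes (0.503% in either direction).

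By clade, the detected genes of clade b had a median log2 difference of 0.55 and those of clade a had -0.17, beside -0.00 for all detected genes. Clade b had 10 detected genes, of which 8 were above 0, beside 4651 of 9547 over all genes, and 4 at least 2-fold higher, beside 1.28%. Of these 8, Serpinb3a and Serpinb3d passed detection through the KO array alone, which fixed their direction. Clade a had 5 detected genes and 0 at 2-fold in either direction, a count that the 2.39% over all genes does not set apart. With the normalised intensities in place of background-corrected values, the medians were 0.28 for clade b and -0.17 for clade a. With clade b genes detected on both arrays alone, the median was 0.16. The 2 clade b genes detected on the KO array alone, Serpinb3a and Serpinb3d, are both higher, and the median is smaller without them. The clade medians cover only genes listed under a Serpin symbol. Of detected genes under older names, Serpina3b and Serpina3f of clade a were 2.29-fold and 2.04-fold higher after background correction. Serpinb6d of clade b was at least 1.27-fold higher and Serpinb6e at least 1.20-fold lower. With these genes added, the background-corrected median of clade a is no longer below that of clade b.

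**Figure D1:**
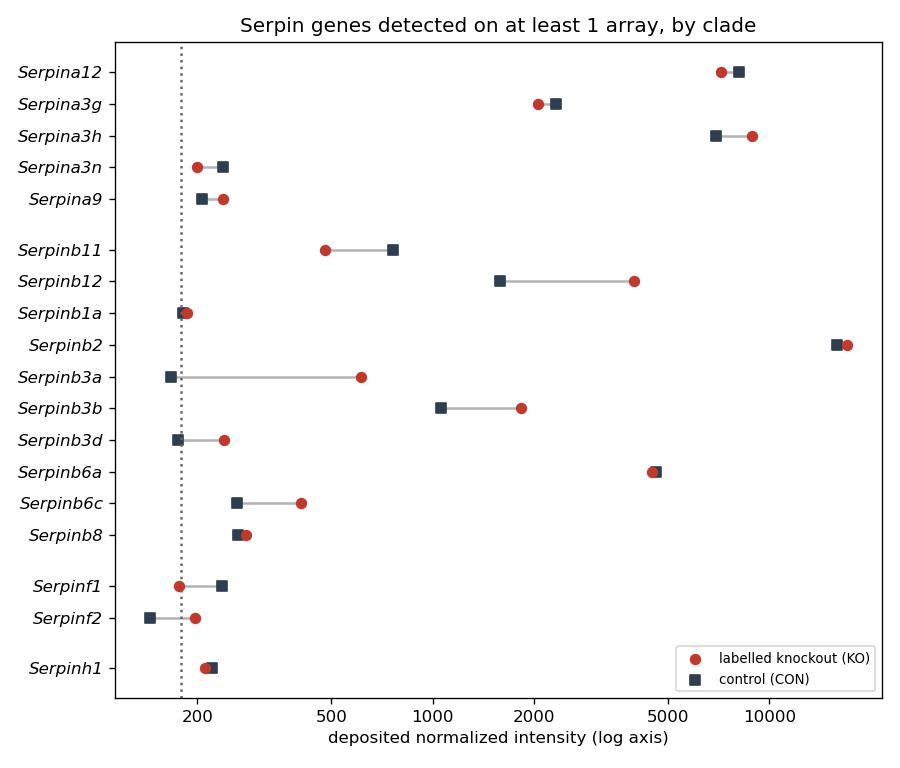
Deposited normalised intensity (log axis) of the 18 Serpin genes detected on at least 1 array, grouped by clade, with the KO array as circles and the CON array as squares. The dotted line marks the detection limit of the CON array (178.5); Serpinb3a, Serpinb3b and Serpinb12 have the KO circle far to the right, and Serpinb11 has it to the left.

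The mouse Serpinb3 genes (Serpinb3a, Serpinb3b, Serpinb3c and Serpinb3d) are counterparts of human SERPINB3 and SERPINB4, the squamous cell carcinoma antigens, which inhibit cysteine cathepsins and chymotrypsin-like serine proteases. The copies lie close together and resemble each other, so a probe for one may also bind transcripts of another. The probe sequences were not among the data used here, and this was not tested at the level of the probes. To show how alike the copies are outside their coding parts, the 250 bases before each annotated gene start are given 5′ to 3′ from RefSeq (GRCm38.p6), all on the minus strand, with capitals marking TATAAA on either strand. The windows are chr1:107052304-107052553 for Serpinb3a, chr1:107161115-107161364 for Serpinb3b, chr1:107278372-107278621 for Serpinb3c and chr1:107083481-107083730 for Serpinb3d.
Serpinb3a: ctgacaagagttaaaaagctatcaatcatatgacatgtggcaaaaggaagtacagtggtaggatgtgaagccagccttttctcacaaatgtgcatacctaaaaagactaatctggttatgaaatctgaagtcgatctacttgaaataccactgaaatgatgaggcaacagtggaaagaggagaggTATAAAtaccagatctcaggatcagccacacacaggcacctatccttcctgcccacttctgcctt
Serpinb3b: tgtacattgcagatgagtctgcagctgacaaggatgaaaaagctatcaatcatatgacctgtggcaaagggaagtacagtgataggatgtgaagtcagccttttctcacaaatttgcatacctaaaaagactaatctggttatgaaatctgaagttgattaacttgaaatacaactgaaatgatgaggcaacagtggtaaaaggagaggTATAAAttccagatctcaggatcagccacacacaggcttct
Serpinb3c: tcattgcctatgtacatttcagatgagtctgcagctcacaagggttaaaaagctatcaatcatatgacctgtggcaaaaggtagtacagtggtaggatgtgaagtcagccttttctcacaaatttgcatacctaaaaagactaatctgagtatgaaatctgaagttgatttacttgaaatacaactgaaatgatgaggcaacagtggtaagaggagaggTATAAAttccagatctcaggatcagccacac
Serpinb3d: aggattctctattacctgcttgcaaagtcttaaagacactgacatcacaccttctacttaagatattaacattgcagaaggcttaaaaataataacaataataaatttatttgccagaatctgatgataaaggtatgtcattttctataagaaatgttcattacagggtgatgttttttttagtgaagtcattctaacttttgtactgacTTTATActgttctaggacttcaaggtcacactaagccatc
Aligned without penalty at the ends, Serpinb3b and Serpinb3c shared 229 of 240 aligned positions (95.4%), Serpinb3a and Serpinb3c 203 of 216 (94%), and Serpinb3a and Serpinb3b 209 of 226 (92.5%). Serpinb3d could be aligned with the others over 64 columns at most, with 36 identical. Relative to the annotated start, TATAAA begins 65 bases before the start in Serpinb3a, 41 in Serpinb3b and 31 in Serpinb3c. In Serpinb3d it lies on the other strand, 40 to 35 bases before the start. TATAAA occurred on either strand in 12.4% of 32851 promoter windows of this length. A spaced repeat of the kind bound by VDR, searched loosely on both strands as the letters GNTCA repeated after 4 free bases, was in 0.548% of all windows and in none of these 4, and the AP-1 letters TGANTCA were in 6.75% of all and in none of these 4. A missing match says only that these letters are not in the window.

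Of the probes of the Serpinb3 copies, 2 were detected on both arrays, both of Serpinb3b and both brighter on the KO array, while those of Serpinb3a and Serpinb3d passed through the KO array alone, which fixed their direction. Serpinb3a has 1 probe, at 610.7 on the KO array against 167.6 on the CON array, where it was not well above background. After background correction it was at least 10.6-fold higher, the first of all 9547 detected genes in that order, but the size of this bound depends on how background is removed. On the log2 scale the bound was 3.41, against 2.84 with the background fitted on the intensities alone, 2.58 with an offset of 50 and 1.72 with no background correction. Serpinb3b has 3 probes, of which the brightest had 1831 on the KO array against 1060 on the CON array, 1.73-fold by intensity and 1.92-fold after background correction. Its second probe had 364.4 against 253.5, 1.44-fold by intensity and 2.02-fold after background correction, so both detected probes of Serpinb3b gave differences of similar size. The third, at 156.9 against 133.2, was not detected on either array.

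Serpinb3d was detected on the KO array alone by its brighter probe, with 239.7 on the KO array against 175.1 on the CON array, at least 2.03-fold higher after background correction. That bound sits at the 2-fold limit, and it fell under 2-fold with the background fitted on the intensities alone (0.74 on the log2 scale) and with an offset of 50 (0.62). Its other probe was at background on both arrays (141.7 against 133.2). Serpinb3c was not detected by either of its probes, at 175.0 and 142.9 on the KO array against 157.6 and 135.0 on the CON array. The annotation of its brighter probe carries a transcript that RefSeq assigns to Serpinb3a, so which copy that probe stands for is uncertain. Of the 4 copies, 2 were counted as at least 2-fold higher, Serpinb3a and Serpinb3d, beside 1.28% of all detected genes. Both passed through the KO array alone, so they could not come out lower. With detection on both arrays, 0 copies were counted.

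**Figure D2:**
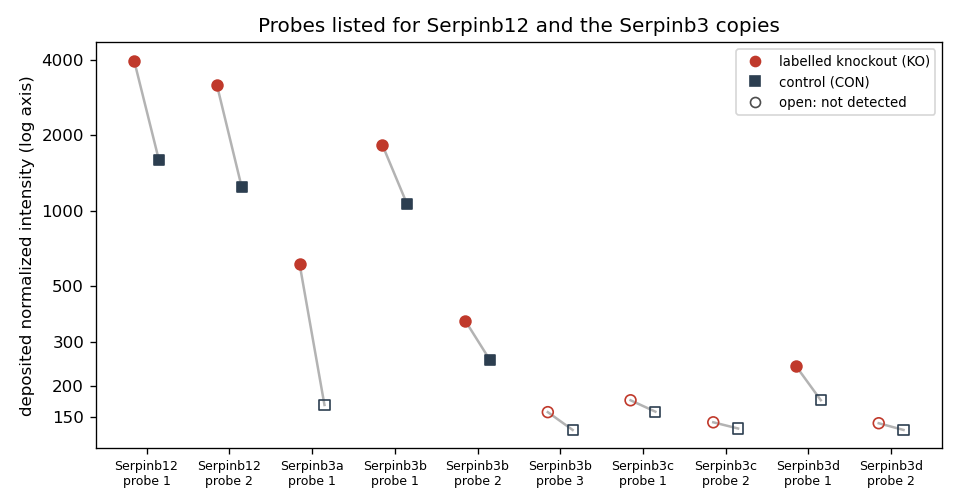
Deposited normalised intensity (log axis) of every probe listed for Serpinb12 and the 4 Serpinb3 copies, KO (circle) left of CON (square), with open symbols where the probe was not detected. The probes of Serpinb12 and those of Serpinb3b with filled symbols were detected on both arrays and were brighter on the KO array. Among the 10 probes, the widest gap was that of Serpinb3a, 610.7 against 167.6, which passed through the KO array alone. Where both symbols are open, the probe was at background.

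Serpinb12, an inhibitor of trypsin-like proteases in human, had the difference that depended least on the background among the 4 serpins at least 2-fold higher. Its probes gave 3966 and 3175 on the KO array against 1588 and 1240 on the CON array. The ratios were 2.50 and 2.56 in normalised intensity and 2.71 and 2.85 after background correction, so the probes differed little from each other. Serpinb12 ranked 41 of 9547 detected genes by its difference. When detected genes were split by intensity into 4 equal bins, Serpinb12 fell in the brightest, where 0.503% of genes (12 of 2387) reached 2-fold in either direction. Serpinb3b, which did not reach 2-fold, also fell there, near the lower edge of 1408. The bin below had 1.68%. The 2 dimmest bins had 3.14% and 4.23%.

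Serpinb11, in mice an inhibitor of trypsin-like proteases, was the clade b gene with the lowest difference. Its probe had 480.1 on the KO array against 763.1 on the CON array, and the log2 difference after background correction was -0.99 (1.98-fold lower), just short of 2-fold. It ranked 113 of 9547 from the low end. Serpinb6c, a gene of the chromosome 13 cluster, had 406.4 on the KO array against 261.8 on the CON array. This was 1.55-fold by intensity and 2.27-fold after background correction. Serpinb6c thus reached 2-fold only where the background is removed, and not with an offset of 50 (0.94 on the log2 scale).

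Serpinb2 and Serpinb6a, the brightest clade b genes, were close to equal on the arrays. Serpinb2, the plasminogen activator inhibitor type 2 of keratinocytes and macrophages, had 17012 on the KO array against 15864 on the CON array, at ranks 103 and 119 of 25697 probes. Serpinb6a, the counterpart of the human cathepsin G inhibitor SERPINB6, had 4479 against 4604. Their log2 differences were 0.16 and -0.03. Serpinb8, whose human counterpart inhibits furin and is needed for the cohesion of the epidermis, was dim with 278.7 against 263.7 (0.17). Serpinb1a, an inhibitor of neutrophil elastase, was near the detection limit with 186.1 against 182.0 (0.08). None of these 4 genes differed by more than 1.12-fold in either direction after background correction.

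The remaining 14 clade b genes were not detected on either array. They include Serpinb5 (maspin, an epithelial serpin that inhibits no protease), with 151.1 on the KO array against 134.0 on the CON array. Also at background were Serpinb13 (in human an inhibitor of cathepsins L and K, 161.0 against 142.4), Serpinb7 (needed in human for palm and sole skin, 144.8 against 161.1) and Serpinb9 (the granzyme B inhibitor, 135.6 against 158.8). Each of these 4 genes has 1 probe, and the data do not show whether that probe works. Over all clades, 35 undetected serpins lay between 127.1 and 175.0 on the KO array and between 124.3 and 176.9 on the CON array.

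On chromosome 1 the higher clade b genes were near neighbours. In gene order the measured members ran from Serpinb5, Serpinb12, Serpinb13, Serpinb3a, Serpinb3d, Serpinb3b and Serpinb3c to Serpinb11, Serpinb7, Serpinb2, Serpinb10 and Serpinb8. Of these 12 genes, 7 were detected, with a median log2 difference of 0.94. At least 2-fold higher were 3, beside 1.28% of all detected genes, and of these 3 only Serpinb12 was detected on both arrays. Between Serpinb12 and Serpinb3b, those 2 genes were detected on both arrays and were 2.71-fold and 1.92-fold higher, Serpinb3a and Serpinb3d passed through the KO array alone, and Serpinb13 was not detected, whereas Serpinb11, Serpinb2 and Serpinb8, which follow, had log2 differences of -0.99, 0.16 and 0.17. The detected neighbours before the cluster differed little: Bcl2, an inhibitor of cell death, had 331.2 on the KO array against 319.3 on the CON array (0.09). Kdsr, an enzyme of ceramide synthesis, had 765.6 against 739.5 (0.07), and Vps4b, which acts in endosomal sorting, had 229.8 against 204.1 (0.41). The neighbours after it, Cdh7, Cdh19 and Dsel, were not detected. With genes detected on both arrays alone, the median of the cluster was 0.17.

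**Figure D3:**
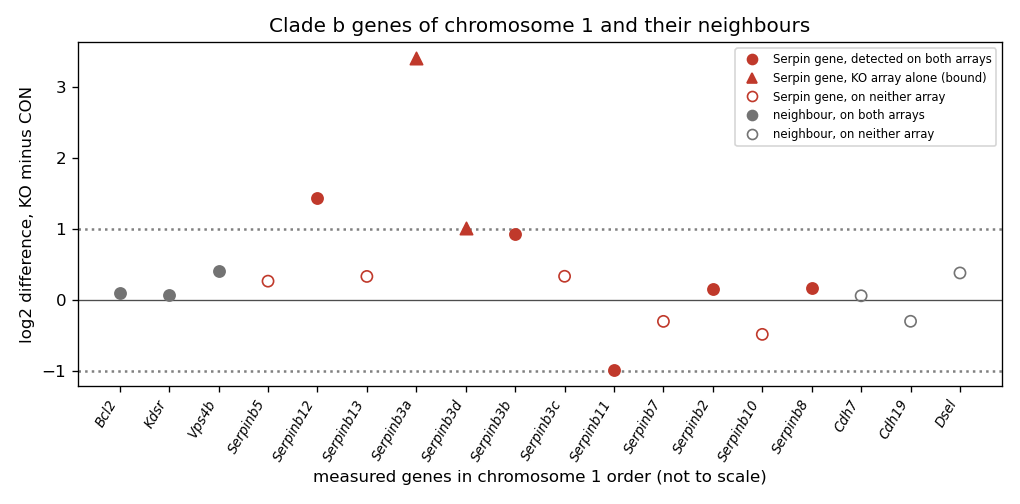
Log2 difference of normalised, background-corrected values, KO minus CON, for the clade b genes of chromosome 1 and the 3 measured genes on each side, in chromosomal order; dotted lines mark 2-fold. Filled circles were detected on both arrays, triangles are bounds for genes detected on the KO array alone, and open circles were not detected; Serpinb12, Serpinb3a, Serpinb3d and Serpinb3b stand above the rest, and Serpinb11 is lowest at -0.99.

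The other clade b cluster, on chromosome 13, had 12 measured members and 3 detected ones, Serpinb6c, Serpinb6a and Serpinb1a, with a median of 0.08. Its detected neighbours Foxc1, Gmds, Nqo2 and Ripk1 had differences of -0.07, -0.23, 0.47 and -0.06.

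Clade a held some of the brightest serpins of the preparation, and none of those listed under a Serpin symbol was 2-fold apart. Serpina3h, which RefSeq lists as a transcribed pseudogene, had 8881 on the KO array against 6940 on the CON array, a log2 difference of 0.38. Serpina12 (vaspin, in human an inhibitor of the skin protease kallikrein 7) had 7204 against 8106 by its brighter probe (-0.17) and 418.2 against 522.4 by the other (-0.52). Both probes of Serpina12 were thus lower on the KO array. Serpina3g (Spi2A, a mouse inhibitor of lysosomal cathepsins) had 2054 against 2324 (-0.19). Copies of the Serpina3 family resemble each other, and which of them each probe measured is uncertain.

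The dim members of clade a pointed both ways. Serpina3n, related to antichymotrypsin, had 199.6 on the KO array against 238.4 on the CON array (-0.61), and Serpina9, known from B cells of germinal centres, had 238.7 against 206.8 (0.50). The liver-type genes Serpina1a, Serpina1b, Serpina1c, Serpina1d and Serpina1e (alpha-1-antitrypsin) were not detected, nor were Serpina6 and Serpina10. Of 9 hepatocyte markers 1 was detected, Ahsg, close to the limit (180.7 on the KO array against 155.7 on the CON array), and Alb was not.

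In clade f, Serpinf1 and Serpinf2 lie next to each other on chromosome 11, and each was detected on 1 array alone, Serpinf1 on the CON array and Serpinf2 on the KO array, which fixed their directions. Serpinf1 encodes pigment epithelium-derived factor, a secreted protein of stromal cells that inhibits no protease. It had 176.4 on the KO array, just under the detection limit, against 236.7 on the CON array, and was at least 2.02-fold lower after background correction. The CON intensity was 1.34 times the KO intensity, and without background correction the log2 difference was -0.30. Serpinf2, the plasmin inhibitor alpha-2-antiplasmin, was detected by 1 of its 3 probes (196.9 against 144.8, at least 1.27-fold higher), and the others, at background, had 143.4 against 156.6 and 139.1 against 134.8. Serpinh1, the collagen chaperone Hsp47 of matrix-secreting cells, had 210.9 against 221.5 (-0.16).

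Serpinf1 and Serpinh1 are also expressed by fibroblasts, several of whose markers were lower on the KO array. Of 17 fibroblast markers on the array 9 were detected, all 9 below 0, with 2 at least 2-fold lower (Dcn, 181.1 against 348.4, and Col6a1, 540.2 against 1024) and 0 higher. Over all detected genes, 1.11% were at least 2-fold lower. Among the 9, Col1a1, Col5a1 and Fbln2 passed through the CON array alone, which fixed their direction, and Thy1 was at -0.01. The summed intensity of the 17 was 5687 on the KO array and 6807 on the CON array. The defining markers Pdgfra, Col3a1, Col1a2 and Lum were not detected, and Col1a1 was detected on the CON array alone (140.0 against 186.3). The part of fibroblast RNA in the difference of Serpinf1 was not tested. In RNA of a mixed cell preparation, fewer cells of a type and less RNA per cell cannot be told apart.

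Other named serpins of the remaining clades were at background. Serpine2 (protease nexin 1, 133.2 on the KO array against 135.5 on the CON array) was not detected, and neither were Serping1 (the C1 inhibitor of complement, 158.4 against 169.7) and Serpini1 (neuroserpin, 163.6 against 176.9). Serpinc1 (antithrombin), Serpind1 (heparin cofactor II) and Serpini2 were not detected either.

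**Figure D4:**
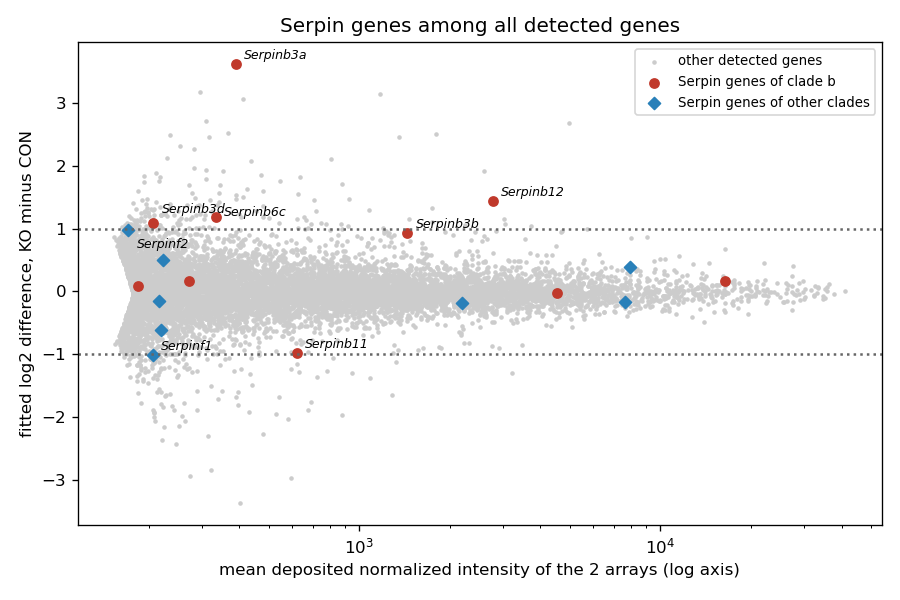
Fitted log2 difference, KO minus CON, against the mean deposited normalised intensity (log axis) for all 9547 detected genes (grey), with Serpin genes of clade b as circles and of other clades as diamonds; dotted lines mark 2-fold. Serpinb12 and Serpinb3b stand away from the grey band at intensities where it is narrow, and Serpinb3d, Serpinf1 and Serpinf2 lie at the dim end, where it is wide.

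Markers of keratinocyte layers and of other cells differed alongside the clade b genes. Of 13 markers of suprabasal and granular keratinocytes 12 were detected, 5 at least 2-fold higher and 0 lower, with a summed intensity of 110757 on the KO array and 96376 on the CON array. After background correction the envelope genes Lce1d and Lce1i differed most, with intensities of 2151 against 558.7 and 612.6 against 264.5. Sprr4, Hrnr and Tgm3 were the others at 2-fold. Of the 12 detected, 9 were above 0 and 3 below. Krt1, Krt10 and Flg2 had log2 differences of 0.16, 0.07 and 0.12, and Lor, Ivl and Dsc1 had -0.01, -0.13 and -0.30. Over all detected genes, 1.28% were at least 2-fold higher and 1.11% lower. The marker lists were drawn up with earlier results of these data known, so these counts do not measure a shift of a layer. All 8 basal keratinocyte markers were detected and 0 reached 2-fold, with sums of 108202 and 119853; Itga6 had 406.9 against 326.6 and Krt15 had 17223 against 22042. Langerhans and dendritic cell markers had 2 of 6 detected members at least 2-fold higher (H2-Ab1, 2975 against 1534, and Cd207, 839.2 against 517.0) and sums of 10462 and 7237. The myeloid list had 2 of 7 (S100a8, 1955 against 389.1, and S100a9, 369.3 against 194.3, which stressed keratinocytes also express) and sums of 5064 and 3203, while Elane, Mpo, Ptprc and Itgam were not detected. Hair shaft and root sheath markers were lower, 6 of 11 by at least 2-fold (sums 2553 and 4082, Krt71 177.1 against 467.1 and S100a3 152.4 against 296.4). Among these hair markers, S100a3, Krt35, Krt25, Krt31, Krt86 and Krt34 were detected on the CON array alone, which fixed their direction. All 5 detected melanocyte markers were below 0, 4 of them detected on the CON array alone, with 2 at least 2-fold lower (sums 1049 and 1818, Dct 182.4 against 619.5 and Ednrb 145.4 against 272.8). Of 4 endothelial markers, each detected on 1 array alone, 2 were above 0 (Tek, 182.0 against 161.8, and Vwf, 187.2 against 174.3) and 2 below (Egfl7, 165.7 against 208.3, and Esam, 153.2 against 183.1), with 0 at 2-fold. Of 5 detected T cell markers 1 was above 0 (Cd3e, 305.5 against 284.0) and 4 below, among them Cd3g (335.3 against 493.3) and Lck (177.8 against 197.9), with 0 at 2-fold. The part of these shifts in the serpin differences was not tested.

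Among proteases that serpins restrain or that act in the epidermis, the median log2 difference was 0.05. Of 40 proteases 23 were detected and 0 reached 2-fold in either direction, a count close to the 2.39% over all genes. Casp1, the protease that matures interleukin 1 beta, came closest with 6074 on the KO array against 3274 on the CON array (0.94). The kallikrein gene Klk13 had 191.7 against 246.1 (-0.87). Casp14, which acts in cornifying cells, had 16544 against 12502 (0.45), and Ctsk, a collagen-cleaving cathepsin, was detected on the CON array alone (158.0 against 202.3, at least 1.39-fold lower). Detection on the CON array alone fixed the direction of Ctsk, and its value is a bound. Ctsl had 244.0 against 234.4 (0.14), Furin 3839 against 4071 (-0.08), Plau (urokinase) 455.6 against 515.7 (-0.28), and Klk7 10488 against 8637 (0.31). Ctsg, Elane, Gzmb, Ctss and Plat were not detected.

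Protease inhibitors of other families differed in both directions. Of 26 on the array 18 were detected, 3 at least 2-fold higher and 2 at least 2-fold lower, with a median of 0.13. This was 27.8% at 2-fold in either direction, the same share as among the detected serpins, beside 2.39% of all detected genes. The equal shares differ in make-up, because Serpinb3a, Serpinb3d and Serpinf1 passed through 1 array alone. With detection on both arrays, 2 serpins were at least 2-fold higher and 0 lower. The inhibitors of other families kept 3 higher and 2 lower. The stefins Stfa3 and Stfa1, cysteine cathepsin inhibitors whose copies also resemble each other, had 621.3 and 8432 on the KO array against 199.0 and 1502 on the CON array, log2 differences of 3.06 and 2.68. Wfdc2, a protein with a whey acidic core, had 253.8 against 189.7 and was at the 2-fold limit after background correction. Wfdc18, of the same family, was detected on the KO array alone (236.1 against 156.7, at least 1.96-fold higher). On the lower side were Wfdc3 (269.2 against 691.1, -2.28) and Timp2, an inhibitor of matrix metalloproteases (697.3 against 1474, -1.38). The abundant inhibitors Cstb (29191 against 25556, 0.25) and Cst3 (14204 against 15418, -0.11) differed little.

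Clearance receptors and cofactors had a median of -0.01, with 1 of 12 detected members at least 2-fold higher, beside 1.28% of all detected genes. This member was Thbd (thrombomodulin, a cofactor of thrombin in keratinocytes and endothelium), with 400.6 on the KO array against 250.2 on the CON array (log2 difference 1.28). Lrp1, the receptor that takes up serpin-protease complexes, had 196.7 against 260.6 (-0.95). Sorl1 and Vldlr, relatives of that receptor, had 373.6 against 478.7 (-0.59) and 252.5 against 217.4 (0.51). Anxa2 and S100a10, which hold plasminogen at the cell surface, had -0.13 and 0.11. Vtn and Plaur were not detected.

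**Figure D5:**
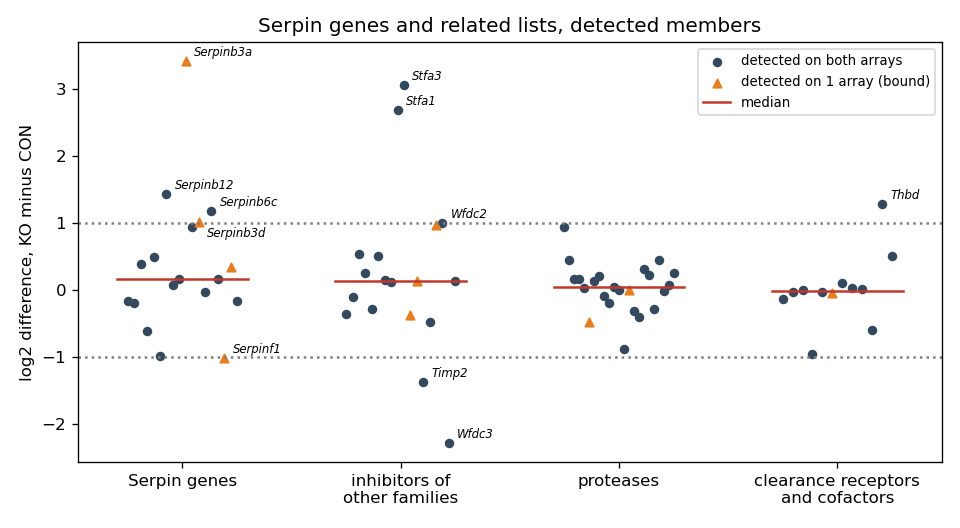
Log2 difference, KO minus CON, of detected Serpin genes, inhibitors of other families, proteases, and clearance receptors and cofactors, with circles for genes detected on both arrays, triangles for bounds and a line at each median; dotted lines mark 2-fold. Medians are 0.16, 0.13, 0.05 and -0.01 from left to right.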

How the data were processed

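Each of 2 groups had 1 array. The authors deposited non-normalised average bead intensities, normalised intensities and a value table equal to the latter, made with GenomeStudio 2011.1 (submitters' processing notes); how they were normalised is not given in the sources used here. Across probes, the detection p-values deposited beside them were unrelated to intensity (rho -0.00727 for KO and -0.00526 for CON), so they were reassigned by signal rank within each array; olfactory receptor probes then passed p under 0.05 in 2.00% (KO) and 2.09% (CON).

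From the non-normalised intensities, background was removed with limma 3.58.1 (normexp, offset 16) in R 4.3.3, followed by log2 and quantile normalisation. A probe was kept when detected on at least 1 array. A gene detected on 1 array takes a bound, in which the dim side is raised to the lowest detected value of its array where it lies under that. Genes were counted from 2-fold. Symbols of other genes were updated through RefSeq (GRCm38.p6; 25376 of 25697 probes matched). Promoters were aligned with Biopython 1.88. Reassignment of p-values, background removal and quantile normalisation were run on simulated data with changes planted in brighter genes. There the p-values followed intensity by design, and the bounds and the choice of probe per gene were not covered.

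Members and gene lists were chosen with earlier results of these data known. Named were all detected clade b genes, members at 2-fold, the brightest and most different genes of other clades, all Serpinb3 probes and the leading members of each list; others were named after their values were seen. The number of arrays limits the precision.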

Additional observations from a re-analysis of the deposited data

How the results depend on the processing

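Every one of the 18 detected serpins kept its direction under each alternative that kept it. For the 4 detected on 1 array alone, the detection filter fixes it. Settings that only change which genes are kept leave the value of each gene as it was, so they could not change a direction. The number at least 2-fold higher was 4, and 2 without background correction, with an offset of 50, in the deposited normalised intensities and with detection on both arrays; it was 3 with the background fitted on the intensities alone and with a common median, both without Serpinb3d, and 1 in the deposited normalised intensities with detection on both arrays. The number at least 2-fold lower was 1, and 0 under the 5 settings with 2 or 1 higher and with the background fitted on the intensities alone, but 2 with a common median in place of quantile normalisation, where Serpinb11 joined. The count of Serpinb3 copies at 2-fold higher was 2. It was 1 without background correction, with the background fitted on the intensities alone, with an offset of 50, with a common median and in the deposited normalised intensities, and 0 with detection on both arrays on either scale. The median of the chromosome 1 cluster was 0.94, and 0.32 without background correction, 0.17 with detection on both arrays, 0.30 with no filter on dim probes and 0.10 in the deposited normalised intensities with detection on both arrays. Thbd fell short of 2-fold without background correction and in the deposited normalised intensities with either filter, which left 0 clearance receptors. Over all genes, 29 were at least 2-fold higher and 19 lower in the deposited normalised intensities, against 122 and 106. The settings that combine the deposited values with detection on both arrays, add probes under older names or use fitted differences were chosen after seeing the data. No paired analysis was possible because each group has 1 array.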

Other observations

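Serpin genes were also present under older names in the array annotation, which the symbol rule passes over; they were looked up after their values were seen. Through RefSeq, 5 further probes belonged to Serpina1f, Serpina3b, Serpina3f, Serpinb6d and Serpinb6e, of which 4 were detected. Serpina3b had a normalised intensity of 600.0 on the KO array against 358.7 on the CON array, 1.67-fold by intensity and 2.29-fold after background correction. Serpina3f had 277.9 against 203.6, 1.36-fold by intensity and 2.04-fold after background correction. Serpinb6d was detected on the KO array alone (197.4 against 163.6, at least 1.27-fold higher) and Serpinb6e on the CON array alone (166.0 against 190.5, at least 1.20-fold lower). With these genes added, 6 serpins were at least 2-fold higher and 1 lower, and the median log2 difference was 0.26. The median of clade a was then no longer below that of clade b. Serpina3b and Serpina3f lie in the chromosome 12 cluster beside Serpina3g and Serpina3h, which had differences of -0.19 and 0.38. The probe listed as Serpinb9f carries an identifier that RefSeq now gives to Serpinb9g, and it was at background (138.3 against 140.9).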
